A study of Mus musculus with 36 samples.

Results

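The genes described here are the nuclear-encoded subunits of oxidative phosphorylation, chosen by gene name in mouse RNA-seq tables. Names that begin with Nduf, Sdh, Uqcr, Cox4 to Cox8 or Atp5 were taken, in the forms used for subunits, and the rule itself uses no measured value. This gave 83 genes, grouped by their names: 35 of complex I, 4 of complex II, 8 of complex III, 19 of complex IV and 17 of complex V. Whether each is a structural subunit was not checked, and Atp5s, described below, is not. A gene was reported in a table where its value was 10 or more in at least 2 libraries. That held for 78 of 81 members in the organoid table, 77 of 82 in the tumour cell table and 80 of 83 in the embryoid body table, against 13543 of 18758, 13226 of 18256 and 15227 of 19834 genes in all. The members that fell under this level were all of complex IV: Cox8b in every table, Cox4i2 and Cox6a2 in organoids and tumour cells, Cox6b2 and Cox7b2 in tumour cells, and Cox7b2 and Cox8c in embryoid bodies.

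Oxidative phosphorylation takes place in the inner mitochondrial membrane. Complex I oxidises NADH and complex II oxidises succinate, complex III passes their electrons on to cytochrome c, and complex IV, cytochrome c oxidase, hands them to oxygen. The proton gradient that complexes I, III and IV build drives complex V, the ATP synthase. Mitochondrial DNA encodes some of the catalytic core subunits, and nuclear genes encode the others, including all of complex II. Several small subunits of complex IV and the c-ring subunit of complex V have more than 1 gene, and some of these copies are known for use in heart and skeletal muscle, in testis or under low oxygen. Pluripotent stem cells are known to lean on glycolysis and to change their mitochondrial use as they differentiate.

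The study profiled cells with and without RREB1, a zinc finger transcription factor that acts downstream of RAS, in the response to TGFβ and in stem cell differentiation. Of 36 samples, the 20 RNA-seq libraries were used here, not the 15 from ChIP-seq or the 1 from ATAC-seq. The tumour cells were the KSIC_806 line of pancreatic ductal adenocarcinoma (PDA), marked S4 in the labels with no meaning given in the sources used here, in 4 groups of 2 libraries: RREB1 WT or KO, each with SB505124, which blocks the kinase of TGFβ type I receptors, at 2.5 µM for 6 h, or with TGFβ at 100 pM for 1.5 h. Ligand and duration differed together, so they cannot be told apart. The embryoid body (EB) groups were E14 mouse embryonic stem cells, RREB1 WT or KO, at day 0 and after 4 days, again with 2 libraries in each group. The CIY organoids of pancreatic epithelial cells had 1 library for each condition, with SB505124 or TGFβ as above, with or without doxycycline at 1 µg/mL from plating, and the labels do not say what doxycycline switches on. The labels do not say whether replicates were separate cultures or whether a genotype rests on 1 clone, so p-values measure the spread between these libraries, which may be technical.

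Libraries held 19.89 to 44.5 M recovered reads. Rreb1 itself was not lower throughout the libraries labelled KO. In PDA cells its value was 1458 and 1501 in WT with inhibitor against 2164 and 2195 in labelled KO, but with TGFβ it was 4293 and 4212 in WT against 2886 and 2560 in labelled KO. In the EB table it was 1085 and 1019 in WT against 2642 and 2830 in labelled KO at day 0, and 1482 and 1586 against 1921 and 1512, which overlap, at day 4. A count over the whole gene does not show an edit, so the groups are called labelled KO throughout. In PDA cells, 11 of 77 members differed by more than 0.5 on the log2 scale between the WT inhibitor replicates and 10 between the labelled KO TGFβ replicates, where 12.6% and 11.4% of all genes did, against 0 and 1 members in the other groups, and the EB groups had 1 or 2 of 80 each. All 10 pancreatic epithelial markers were present in every PDA and organoid library, led by Krt8 and Krt18. In PDA cells the 4 endothelial markers in the table summed to 45.9 to 60.7 in WT and 932 to 1364 in labelled KO, almost all from Cdh5, with Pecam1 at 0 to 1.84. The 7 fibroblast markers in the table summed to 73.9 to 94.5 and 389 to 434 in WT with inhibitor and TGFβ, and to 130 to 135 and 410 to 426 in labelled KO, mostly from Col1a1 and Pdgfra. At day 0 the 9 pluripotency markers summed to 115103 and 115256 in WT and to 138466 and 146785 in labelled KO, and at day 4 to 36723 and 36791 in WT and to 67524 and 67694 in labelled KO. The 10 primitive streak and mesoderm markers summed to 255 and 289 at day 0 and to 10975 and 18423 at day 4 in WT, but only to 571 and 555 at day 0 and 854 and 884 at day 4 in labelled KO. Such sums hide differences between genes. From day 0 to day 4 the median log2 fold change of the 9 pluripotency markers was -1.41 in WT and -1.84 in labelled KO. For the 6 visceral endoderm markers it was 5.27 in WT and 0.38 in labelled KO. The part these differences in cell state play in the results below was not tested. In bulk samples fewer cells of a type and less RNA per cell cannot be told apart.

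Promoter windows are shown for 4 members that the results turn on, to set genes that hold a match to a known respiratory factor motif beside genes that hold none. NRF1 and the ETS factor GABP are textbook regulators of respiratory chain genes, and YY1 binds many of their promoters. The windows are the 250 bases before the annotated start in RefSeq (GRCm38.p6), written 5′ to 3′ on the strand of the gene, with motif matches in capitals. Uqcrh lies at chr4:116075071-116075320 on the minus strand and Cox6a1 at chr5:115348959-115349208 on the minus strand. Cox7c lies at chr13:86046796-86047045 on the minus strand and Cox7a1 at chr7:30183921-30184170 on the plus strand.
Uqcrh: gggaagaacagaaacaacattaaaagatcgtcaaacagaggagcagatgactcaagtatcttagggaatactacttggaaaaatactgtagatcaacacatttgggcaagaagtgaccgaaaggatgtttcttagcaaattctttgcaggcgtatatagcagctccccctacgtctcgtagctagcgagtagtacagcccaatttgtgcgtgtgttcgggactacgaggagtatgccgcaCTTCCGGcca
Cox6a1: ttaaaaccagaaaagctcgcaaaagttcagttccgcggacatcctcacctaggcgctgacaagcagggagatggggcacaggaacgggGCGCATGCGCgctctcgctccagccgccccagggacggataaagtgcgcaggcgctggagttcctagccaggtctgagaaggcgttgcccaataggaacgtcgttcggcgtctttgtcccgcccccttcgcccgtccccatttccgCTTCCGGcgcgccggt
Cox7c: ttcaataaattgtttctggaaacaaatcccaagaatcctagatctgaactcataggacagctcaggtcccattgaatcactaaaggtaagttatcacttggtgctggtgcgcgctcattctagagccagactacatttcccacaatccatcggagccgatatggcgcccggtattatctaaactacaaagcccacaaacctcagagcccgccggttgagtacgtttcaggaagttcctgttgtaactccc
Cox7a1: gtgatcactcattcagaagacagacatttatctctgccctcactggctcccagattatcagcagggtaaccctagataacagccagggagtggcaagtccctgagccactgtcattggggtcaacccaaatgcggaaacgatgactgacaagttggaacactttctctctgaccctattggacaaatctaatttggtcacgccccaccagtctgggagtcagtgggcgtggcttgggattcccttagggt

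In the Uqcrh window an ETS match (CCGGAAG on the opposite strand) ended 4 bases before the start. Cox6a1 held an NRF1 match, the longer run of capitals in its line, 162 to 153 bases before the start and an ETS match 16 to 10 bases before it, and the Cox7c and Cox7a1 windows held none of the 3 motifs. Of the 80 reported members, 67 were matched to a window. On either strand, 5 of the 67 (7.46%) held the NRF1 motif, 16 (23.9%) the ETS motif and 11 (16.4%) the YY1 motif AAGATGGC, and 29 (43.3%) held at least 1 of the 3. Counted in the same way over all 27025 genes, the shares for the single motifs were 1.07%, 9.93% and 3.19%. A match describes letters in the sequence searched and is not a bound site.

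**Figure D1:**
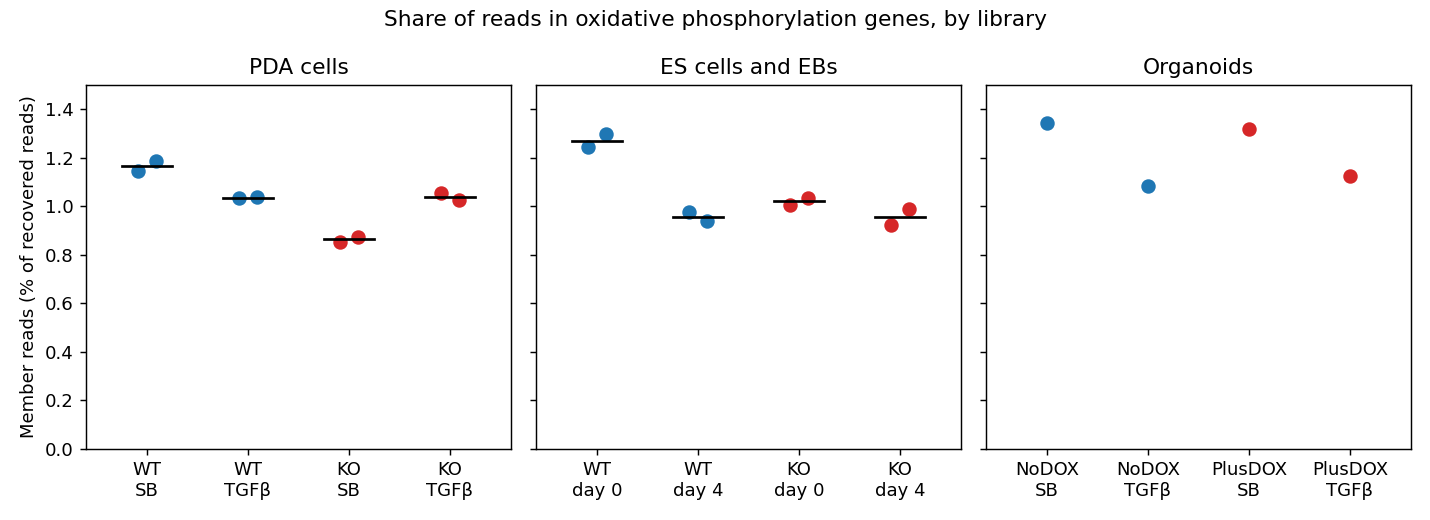
Reads in the oxidative phosphorylation subunits as a percentage of all recovered reads, 1 point per library, for the organoid, PDA and EB tables. WT day 0 stem cells lay at 1.24 and 1.30 percent, above the 6 other EB libraries, and labelled KO PDA cells with inhibitor lay at 0.853 and 0.874 percent, below the 6 other PDA libraries.

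As a group, these genes took between 0.853% and 1.34% of the reads of a library. In the EB table their share was 1.27% ± 0.0375 (SD, n = 2) in WT day 0 stem cells and 0.956% ± 0.0261 at day 4, whereas it was 1.02% ± 0.0181 at day 0 and 0.957% ± 0.0464 at day 4 in labelled KO. In PDA cells it was 1.17% ± 0.0297 in WT with inhibitor, 1.03% ± 0.00377 in WT with TGFβ, 0.864% ± 0.015 in labelled KO with inhibitor and 1.04% ± 0.0214 in labelled KO with TGFβ. The ATP synthase β subunit gene Atp5b had the highest value in all 3 tables, with 17.1% of the members' summed value in PDA cells, 17.9% in EBs and 13.1% in organoids, followed by the α subunit gene Atp5a1. These are values per gene, not per length, so they do not rank transcripts.

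In WT cells, the subunit genes of all 5 complexes fell as stem cells formed day 4 EBs. With limma on log2(value + 1) and adjusted p under 0.05, 68 of 80 members were lower at day 4 and 2 were higher, where 30.8% of all genes tested were lower and 32.3% higher. The median log2 fold change of the members was -0.46, against -0.00 for all genes. By complex, 31 of 35 fell in complex I, 3 of 4 in complex II, 7 of 8 in complex III, 14 of 16 in complex IV and 13 of 17 in complex V, with medians from -0.60 in complex IV to -0.30 in complex V. For 73 members the day 4 libraries all lay below the day 0 libraries, which held for 41.7% of all genes.

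The lowest log2 fold changes were those of Atp5s and of Cox7a1, a complex IV isoform gene described below. Cox6a1, the ubiquitous form of a small complex IV subunit, had 3668 and 3853 at day 0 and 2088 and 1802 at day 4 (log2 fold change -0.95 ± 0.079 (SE), limma adjusted p = 1.2e-07). Cox8a, another small complex IV subunit, had 4125 and 4278 at day 0 and 2322 and 2185 at day 4 (-0.90 ± 0.078, limma adjusted p = 2.11e-07). Neither gene's groups overlapped. Atp5s, which carries an ATP synthase name but is not a structural subunit of it, had -1.06 ± 0.143 (limma adjusted p = 1.67e-05), from 340 and 415 to 190 and 171.

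In complex II, which oxidises succinate and belongs also to the TCA cycle, the iron-sulfur subunit gene Sdhb fell by 0.67 on the log2 scale (limma adjusted p = 6.83e-07), from 3246 and 3327 to 2098 and 2044. The membrane anchor gene Sdhc fell by 0.65 (limma adjusted p = 1.14e-06), from 3640 and 3975 to 2438 and 2397. The flavoprotein gene Sdha fell less, by 0.24 ± 0.066 (limma adjusted p = 0.00544), from 7687 and 7722 to 6360 and 6670, and did not pass with quantile normalization (-0.15, limma adjusted p = 0.0547). The other anchor gene, Sdhd, had 3176 and 3154 at day 0 and 2907 and 2940 at day 4 and did not pass the test. The 4 genes of this complex thus did not move by the same amount, although no test set their falls against each other.

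Both members that rose in WT were exceptions within their complexes. Cox4i2, the alternative form of complex IV subunit 4 known for use in lung and under low oxygen, had 38.7 and 43.6 at day 0 and 186 and 133 at day 4 (log2 fold change 1.92 ± 0.35, limma adjusted p = 0.000259). Its common counterpart Cox4i1 fell over the same days, from 8686 and 9413 to 7494 and 6729 (-0.35 ± 0.071, limma adjusted p = 0.000643). Uqcrh, the hinge protein of complex III, had 2279 and 2575 at day 0 and 2984 and 2922 at day 4 (0.29 ± 0.073, limma adjusted p = 0.00351), a rise that did not pass without the first WT day 0 replicate (0.20, limma adjusted p = 0.0762).

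**Figure D2:**
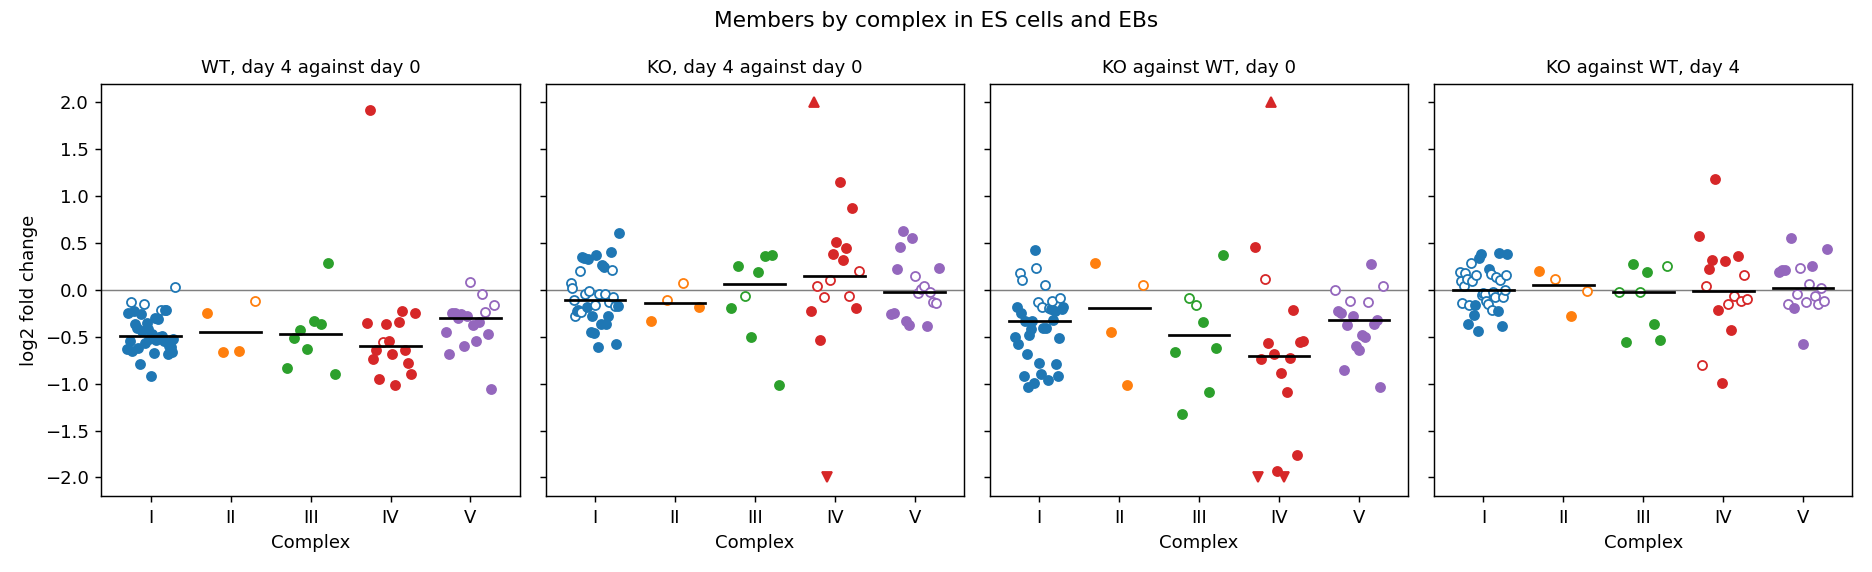
Log2 fold changes of the 80 reported subunits in the EB table by complex (I to V), for day 4 against day 0 in WT and in labelled KO and for labelled KO against WT at day 0 and at day 4. Filled points passed limma at adjusted p under 0.05, open points did not, black bars are medians, and triangles mark values beyond the axis. In WT nearly all points lie below 0 in every complex, while in labelled KO they spread to both sides.

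In the cells labelled KO the same 4 days gave a mixed picture. Of 80 members, 24 were higher and 26 lower at day 4, with 29.1% of all genes higher and 30.9% lower, and the members' median was -0.04. Both shares of members were near those of all genes. With quantile normalization the split was 26 higher and 17 lower. By complex, 8 rose and 12 fell in complex I, 4 and 3 in complex III, 7 and 4 in complex IV, and 5 and 5 in complex V, and 2 fell in complex II. The count of falls was 14 without the second labelled KO day 0 replicate and 16 without the first labelled KO day 4 replicate.

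The WT and labelled KO time courses used separate libraries. Of the 68 members that fell in WT, 23 (33.8%) also fell in labelled KO, where they made up 88.5% of the falls. Another 19 (27.9% of the WT falls and 79.2% of the labelled KO rises) fell in WT and rose in labelled KO, among them Cox7c, Cox7a1, Cox7a2, Cox7a2l, Cox6b2 and Cox6c of complex IV. Over all 80 members, 85% fell in WT, and 32.5% fell and 30% rose in labelled KO. The overlap shares just given were near these. No such overlap was counted over all genes. Cox4i2 and Uqcrh rose in both. The difference between the time courses, tested as an interaction, was called in 52 members: 51 were higher in labelled KO relative to WT and 1 lower, where 27.1% of all genes were called higher and 28.6% lower. The members' median difference was 0.44, and in complex IV, with 13 of 16 higher and 1 lower, it was 0.69.

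The highest and the lowest difference between the time courses were both in complex IV genes, Cox4i2 and Cox6a2. Cox7c, a complex IV subunit with no muscle counterpart, had 3131 and 3345 at WT day 0 and 1954 and 1830 at WT day 4, but 903 and 1011 at labelled KO day 0 and 1727 and 1763 at labelled KO day 4. It therefore fell in WT, rose by 0.87 ± 0.076 in labelled KO (limma adjusted p = 2.82e-07), and differed between the time courses by 1.64 ± 0.108 (limma adjusted p = 2.73e-08). The labelled KO day 0 libraries were lower than all 6 others. Cox7c has an annotated copy by name, with no sequence compared, and the labels do not say how reads were divided between them.

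Cox7a1, the form of subunit 7a known from heart and skeletal muscle, had 220 and 269 at WT day 0 and 145 and 99.8 at WT day 4 (log2 fold change -1.01 ± 0.196, limma adjusted p = 0.000429). In labelled KO it had 50.0 and 46.8 at day 0 and 112 and 105 at day 4 (1.15 ± 0.196, limma adjusted p = 0.000159). The day 4 libraries of the genotypes overlapped, and the day 0 libraries lay far apart. The time courses differed by 2.16 ± 0.277 (limma adjusted p = 1.66e-05). For Cox7a2, the common form of subunit 7a, the fall in WT (-0.34, limma adjusted p = 0.00287) and the rise in labelled KO (0.32, limma adjusted p = 0.00459) were smaller, and the WT fall did not pass without the second WT day 0 replicate (-0.24, limma adjusted p = 0.0634).

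Cox4i2 was nearly absent from labelled KO stem cells, at 5.94 and 1.91, and had 101 and 80.8 at day 4. The log2 fold change was 4.34 ± 0.35 (limma adjusted p = 1.18e-07), and it was 2.86 when 10 instead of 1 was added to each value, since the day 0 level rests on few reads. The difference from the WT time course was 2.43 ± 0.494 (limma adjusted p = 0.000854), or 1.15 with 10 added. Cox6a2, the heart and skeletal muscle form of subunit 6a, went the other way: 118 and 112 at labelled KO day 0 against 10.2 and 16.8 at labelled KO day 4 (-3.04 ± 0.48, limma adjusted p = 8.23e-05). In WT it had 3.97 and 15.7 at day 0 and 5.77 and 4.66 at day 4, with no call. Its time courses differed by -2.48 ± 0.678 (limma adjusted p = 0.00655), and by -1.60 without the first WT day 0 replicate.

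Muscle markers were read beside these isoforms. The 10 cardiac and skeletal muscle markers summed to 600 and 551 at WT day 0, 612 and 658 at WT day 4, 539 and 651 at labelled KO day 0 and 588 and 521 at labelled KO day 4. The sums hide differences between genes: at day 0, 4 of the 7 markers tested were lower in labelled KO and 2 higher, with a median log2 fold change of -1.03 against -0.00 for all genes. The lower ones included the cardiac genes Myl7 (-2.36), Actc1 (-2.06) and Tnnt2 (-1.88). Most of each labelled KO day 0 sum came from Ryr2, at 361 and 482. Ckm, Myog and Myod1, which mark skeletal muscle, lay between 0 and 7.92 in every group. The part of these markers in the isoform results was not tested.

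**Figure D3:**
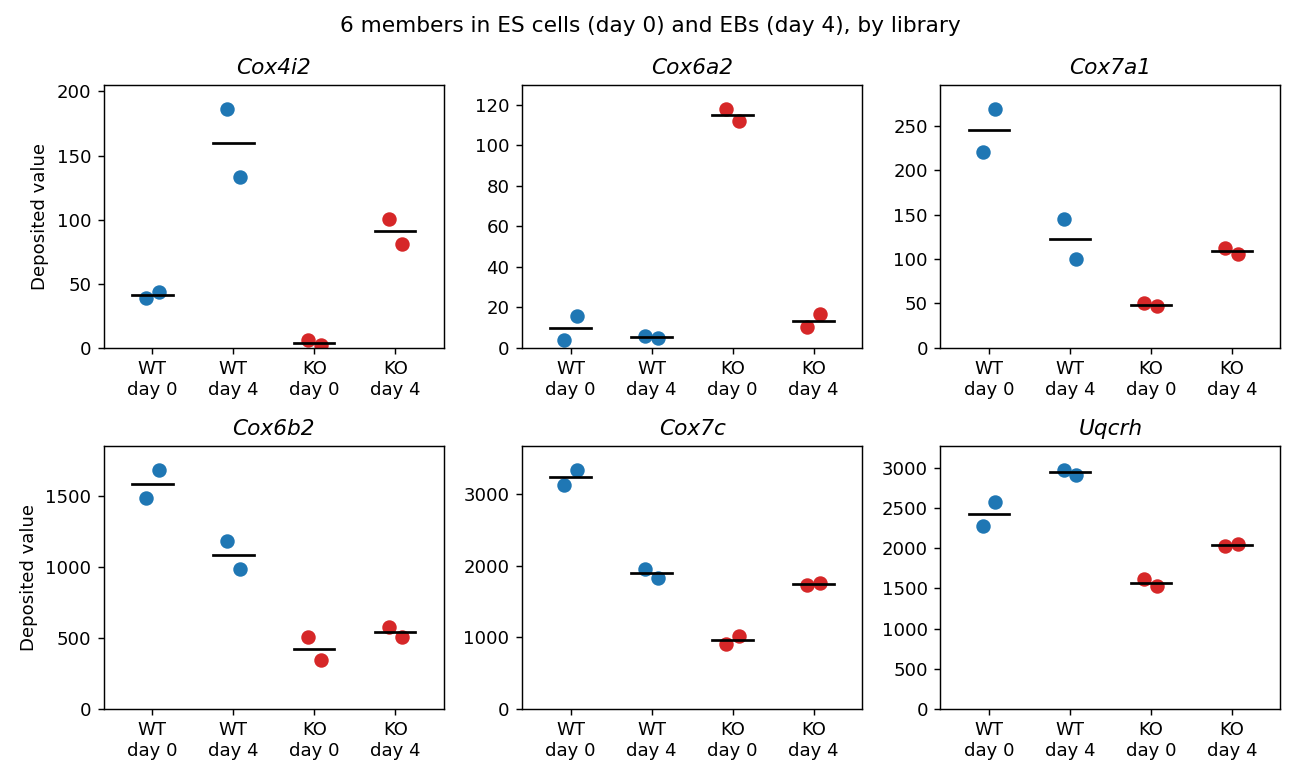
Deposited values of 6 subunit genes in the 8 EB libraries (points, 2 per group, with bars at the group mean). Labelled KO day 0 stem cells are lowest of the 4 groups for Cox4i2, Cox7a1, Cox7c, Cox6b2 and Uqcrh and highest for Cox6a2.

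Cox6b2, a form of subunit 6b known from testis, was abundant in stem cells, with 1483 and 1684 at WT day 0 and 1181 and 987 at WT day 4. It fell in WT (log2 fold change -0.55 ± 0.147, limma adjusted p = 0.00476), but not past the threshold without the second day 0 replicate (-0.46, limma adjusted p = 0.0559) or the second day 4 replicate (-0.42, limma adjusted p = 0.0681). In labelled KO it had 501 and 341 at day 0 and 577 and 507 at day 4. That rise of 0.39 (limma adjusted p = 0.0354) was lost without the second labelled KO day 0 replicate (0.11, limma adjusted p = 0.515) and without the first labelled KO day 4 replicate (0.29, limma adjusted p = 0.189). In PDA cells the same gene had 0 to 1.84 in the 8 libraries and in organoids 88.3 to 198, on tables that were normalized separately.

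Among the genes that fell in labelled KO, Uqcrq, a small complex III subunit, had 2264 and 3078 at day 0 and 1213 and 1410 at day 4 (-1.01 ± 0.123, limma adjusted p = 7.32e-06). Ndufb6, an accessory subunit of complex I, had 1449.7 and 1631 at day 0 and 999 and 1012 at day 4 (-0.61 ± 0.087, limma adjusted p = 3.19e-05). Both genes fell in WT as well. The 3 genes for the c-ring of ATP synthase, whose mature protein is the same, did not move together. Atp5g1 fell in WT (-0.60, limma adjusted p = 9.55e-05) and in labelled KO (-0.37, limma adjusted p = 0.00458), the second not without the first labelled KO day 4 replicate (-0.20, limma adjusted p = 0.06). Atp5g2 was called lower in WT (-0.28, limma adjusted p = 0.0264), but not after rescaling (-0.21, limma adjusted p = 0.0964), with no filter (limma adjusted p = 0.0522), or without the first or second WT day 0 replicate (-0.29 and -0.26, limma adjusted p = 0.0782 and 0.114) or the second WT day 4 replicate (-0.12, limma adjusted p = 0.356). It rose in labelled KO (0.56, limma adjusted p = 0.000251), from 1224 and 1041 to 1693 and 1629. Atp5g3 was called in neither time course, at 5215 and 5539 then 5774 and 5597 in WT and at 3222 and 3664 then 3706 and 3940 in labelled KO.

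At day 0, before differentiation, most subunit genes were lower in labelled KO than in WT stem cells. limma called 57 of 80 members lower and 6 higher, where 33.3% of all genes were lower and 33.9% higher, with a members' median of -0.39. This comparison shares its libraries with the time courses above, so the results are not independent. The falls covered 25 of 35 genes in complex I, 2 of 4 in complex II, 5 of 8 in complex III, 13 of 16 in complex IV and 12 of 17 in complex V. For 65 members the labelled KO libraries lay below both WT libraries, as for 42.3% of all genes.

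Complex IV held the extremes at day 0 in each direction. Cox4i2 had a log2 fold change of -3.23 ± 0.35 (limma adjusted p = 1.65e-06, and -1.89 with 10 added), Cox7a1 had -2.31 ± 0.196 (limma adjusted p = 1.43e-07) and Cox6b2 had -1.93 ± 0.147 (limma adjusted p = 4.96e-08). Cox7a2 had 2825 and 3241 in WT against 1415 and 1424 in labelled KO (-1.09 ± 0.085, limma adjusted p = 5.92e-08). Cox6a2 was higher (3.67 ± 0.48, limma adjusted p = 1.06e-05), and so was Cox4i1, at 8686 and 9413 in WT against 12307 and 12519 in labelled KO (0.46 ± 0.071, limma adjusted p = 5.41e-05). The higher Cox4i1 and lower Cox4i2 values gave the forms of subunit 4 opposite directions in the same libraries.

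In complex II, Sdhc was lower at day 0, with 3640 and 3975 in WT and 1863 and 1910 in labelled KO (-1.01 ± 0.067, limma adjusted p = 1.3e-08). Sdha was higher, with 7687 and 7722 in WT and 9438 and 9358 in labelled KO (0.29, limma adjusted p = 0.00154), though not with quantile normalization (0.15, limma adjusted p = 0.0586). Ndufb11, an accessory subunit of complex I, was also higher (0.43 ± 0.075, limma adjusted p = 0.000157). Uqcr11, a small subunit of complex III, was lower, from 1574 and 1674 in WT to 626 and 667 in labelled KO. The groups of these 4 genes did not overlap.

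By day 4 the split between the genotypes was more even: 20 of 80 members were higher in labelled KO and 15 lower, with 27.8% of all genes higher and 28.4% lower and a members' median of -0.00. The split was 10 higher and 23 lower after rescaling to the same total and 13 and 16 after quantile normalization, so its direction depended on the scaling. The median of all genes was -0.01, and -0.11 after rescaling. Cox6b2 (-0.996 ± 0.147, limma adjusted p = 4.87e-05), Atp5g3 (-0.57, limma adjusted p = 1.27e-05) and Uqcr11 (-0.56, limma adjusted p = 0.000135) were lower. Cox4i1 (0.58 ± 0.071, limma adjusted p = 8.21e-06) and Atp5e, the small ε subunit of ATP synthase (0.55, limma adjusted p = 0.000106), were higher. Cox6a2 was called higher (1.19 ± 0.48, limma adjusted p = 0.0477) from few reads. The call was lost without any of 5 of the libraries, among them the second labelled KO day 4 replicate (0.85, limma adjusted p = 0.244). It was also lost with 10 added (0.61, limma adjusted p = 0.0564), after rescaling, with no filter, and with edgeR or DESeq2, whose adjusted p-values were 0.0643, 0.0957, 0.0519 and 0.0662 in that order. The count of higher members was 10 without the second WT day 4 replicate and 12 without the second labelled KO day 4 replicate.

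In WT PDA cells, subunit genes were lower with TGFβ for 1.5 h than with the receptor inhibitor for 6 h. limma called 32 of 77 members lower and 1 higher, where 17.6% of all genes were lower and 19.4% higher. The members' median log2 fold change was -0.21, against 0.00 for all genes, and 71 members lay below 0. The falls were in complexes I (16 of 35), III (1 of 8), IV (7 of 13) and V (8 of 17), and the 4 genes of complex II had log2 fold changes between -0.05 and -0.00 and were not called. For 50 members the groups did not overlap in this direction, as for 34.5% of all genes. The count of falls was 1 without either of the WT TGFβ replicates and 19 without either labelled KO inhibitor replicate. It was 63 without WT inhibitor replicate 1 and labelled KO TGFβ replicate 2, from the groups whose replicates differed most. This setting was chosen after seeing the data and lowers the estimated spread, so the higher count is no further support.

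Ndufab1, the mitochondrial acyl carrier protein that also sits in complex I, showed the largest fall, from 924 and 729 with inhibitor to 353 and 397 with TGFβ (log2 fold change -1.13 ± 0.255, limma adjusted p = 0.0118). Cox5a, a complex IV subunit, fell from 9021 and 7457 to 5949 and 6066 (-0.45 ± 0.10, limma adjusted p = 0.0112). Atp5h, the d subunit in the stalk of ATP synthase, fell from 5207 and 4630.4 to 3507 and 3777 (-0.43 ± 0.098, limma adjusted p = 0.012). No group overlapped in these 3 genes. Cox7a1 was the member that rose, from 33.0 and 28.3 to 55.7 and 50.9 (0.78 ± 0.206, limma adjusted p = 0.0215), and it did not pass with quantile normalization (0.59, limma adjusted p = 0.0606) or without the second WT inhibitor replicate (0.67, limma adjusted p = 0.0851). Without WT TGFβ replicate 1, limma adjusted p for these 4 genes lay between 0.0806 and 0.138, and without replicate 2 between 0.0515 and 0.0897.

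In the PDA cells labelled KO the direction was opposite. With TGFβ, 26 of 77 members were higher and 0 lower, where 20.6% of all genes were higher and 18% lower, and the members' median was 0.16. The rises were 8 in complex I, 3 in complex II, 2 in complex III, 6 in complex IV and 7 in complex V. At unadjusted p under 0.05, limma gave 32 higher and 0 lower, and edgeR and DESeq2 on the recovered reads each called 18 higher and 0 lower. The shares of all genes under these other rules were not counted. For 46 members the groups did not overlap in this direction, as for 37% of all genes. The count of rises was 7 and 6 without labelled KO inhibitor replicates 1 and 2, 12 without labelled KO TGFβ replicate 2 and 15 without either WT TGFβ replicate. It was 44 after rescaling to the same total, which moved the median of all genes from 0.02 to 0.13.

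Uqcrh rose the most, from 3816 and 3687 with inhibitor to 5506 and 6612 with TGFβ (0.69 ± 0.116, limma adjusted p = 0.00305). By name it has 2 annotated copies, with no sequence compared. Sdhd rose from 5984 and 5868 to 8234 and 8337 (0.48 ± 0.055, limma adjusted p = 0.000487). In WT it had 6785 and 6693 with inhibitor and 6700.0 and 6753 with TGFβ. The labelled KO TGFβ libraries thus had the highest Sdhd values of the 8. Sdha rose as well, from 6545 and 6590.1 to 7724 and 8373 (0.29 ± 0.069, limma adjusted p = 0.0128), but not without either labelled KO inhibitor replicate (0.29 and 0.30, limma adjusted p = 0.0854 and 0.076) or labelled KO TGFβ replicate 2 (0.23, limma adjusted p = 0.0659).

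**Figure D4:**
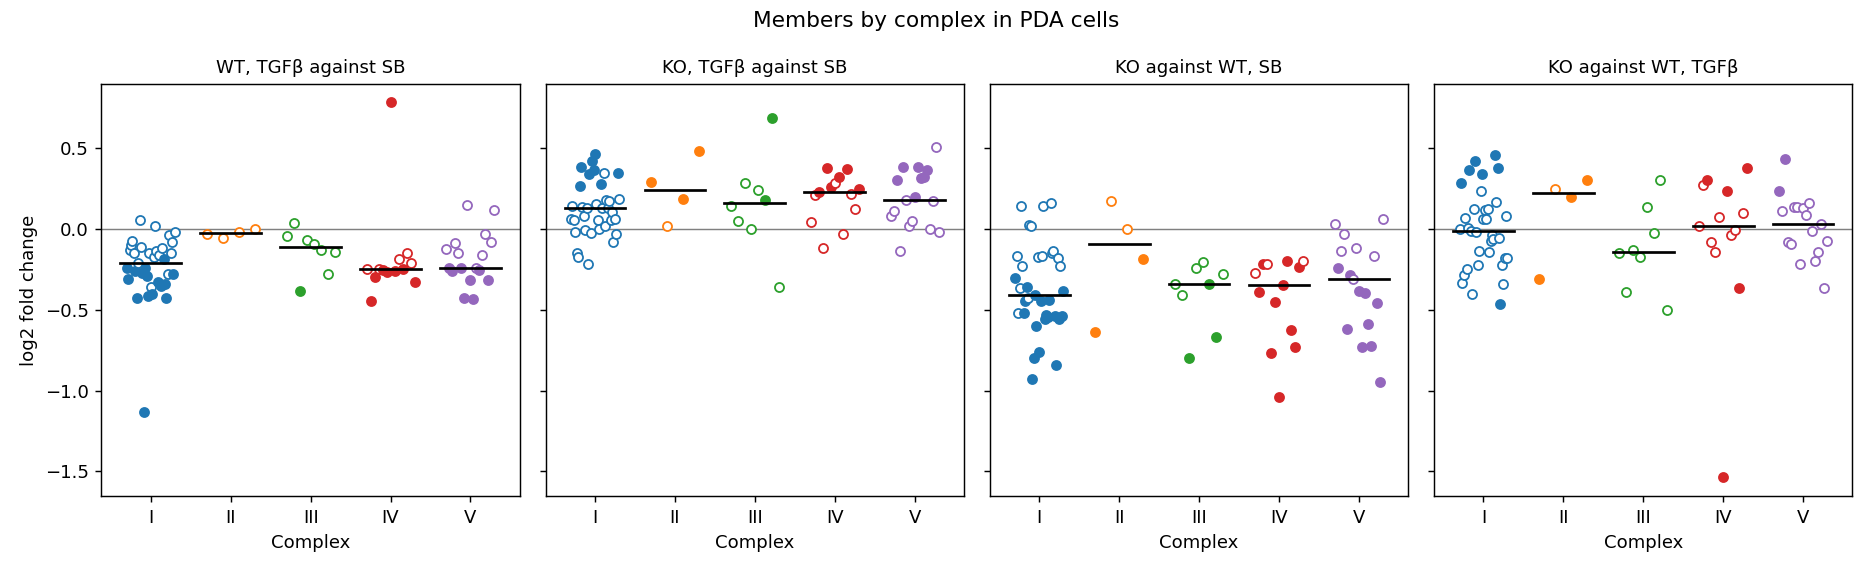
Log2 fold changes of the 77 reported subunits in the PDA table by complex (I to V), for TGFβ against inhibitor in WT and in labelled KO and for labelled KO against WT under each treatment. Filled points passed limma at adjusted p under 0.05, open points did not, and black bars are medians. Medians over all members were -0.21 in WT and 0.16 in labelled KO.

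The WT and labelled KO responses used separate libraries, and no member was called in the same direction in both. There were 15 members that fell in WT and rose in labelled KO, which is 46.9% of the WT falls and 57.7% of the labelled KO rises. They included Cox5b, Cox6b1, Cox6c, Cox7a2 and Cox7b of complex IV, Ndufb2, Ndufb10 and Ndufv2 of complex I, and Atp5c1 and Atp5g3 of complex V. Over all 77 members, 41.6% fell in WT and 33.8% rose in labelled KO. The same overlap was not counted over all genes, so it cannot be called particular to these members. Tested as an interaction, the response was higher in labelled KO than in WT for 37 members and lower for 0, where 9.71% of all genes were higher and 12.1% lower, with a members' median difference of 0.37. At unadjusted p under 0.05 limma gave 47 higher and 0 lower, and edgeR and DESeq2 called 31 and 33 higher and 0 lower, with no shares of all genes counted. The count was 5 and 9 without WT TGFβ replicates 1 and 2, and 11 and 12 without labelled KO inhibitor replicates 1 and 2.

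Cox6b1, the common form of subunit 6b, illustrates the pattern. It had 9057 and 8631 in WT with inhibitor, 7382 and 7464 in WT with TGFβ, 5259.8 and 5116 in labelled KO with inhibitor, and 6557 and 6900.1 in labelled KO with TGFβ. In WT its log2 fold change was -0.25 (limma adjusted p = 0.0157, and 0.117 and 0.0975 without WT TGFβ replicates 1 and 2). It rose by 0.37 ± 0.061 in labelled KO (limma adjusted p = 0.00258), and its responses differed by 0.63 ± 0.087 (limma adjusted p = 0.00394). The labelled KO libraries lay below all WT libraries under either treatment. Cox7b had a difference in response of 0.62 ± 0.092 (limma adjusted p = 0.00497) and Ndufb2, an accessory subunit of complex I, of 0.84 ± 0.121 (limma adjusted p = 0.00439). These 3 differences passed in every alternative run. Uqcrh (0.96 ± 0.165, limma adjusted p = 0.00781) did not pass without WT TGFβ replicate 1 (0.94, limma adjusted p = 0.0513).

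With inhibitor, 44 of 77 members were lower in labelled KO than in WT PDA cells and 0 were higher. Of all genes 27.2% were lower and 28.9% higher, and the members' median was -0.36. This comparison shares its libraries with the responses just described. The calls covered 19 of 35 genes in complex I, 2 of 4 in complex II, 3 of 8 in complex III, 10 of 13 in complex IV and 10 of 17 in complex V. At unadjusted p under 0.05 limma gave 50 lower and 0 higher, and edgeR and DESeq2 each called 41 lower and 0 higher, with no shares of all genes counted. Rescaling to the same total moved the median of all genes to -0.16 and that of the members to -0.51. For 59 members the labelled KO libraries lay below both WT libraries, as for 38.3% of all genes.

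Cox7a1 had 33.0 and 28.3 in WT and 14.1 and 14.7 in labelled KO with inhibitor (-1.04 ± 0.206, limma adjusted p = 0.00374). It did not pass with DESeq2 on the recovered reads (-1.08, DESeq2 adjusted p = 0.0866). Labelled KO inhibitor replicate 1 held 20.4 M reads, the fewest in the PDA table, and 1 read gave a value of 2.01 in it. Sdha had 10625 and 9826 against 6545 and 6590.1 (-0.64 ± 0.069, limma adjusted p = 0.000184). Cox6b1 was lower at -0.77 ± 0.061 (limma adjusted p = 4.13e-05) and Cox7b at -0.62 ± 0.065 (limma adjusted p = 0.000161). Each of these 4 genes had groups that did not overlap. Ndufab1 was called lower (-0.93 ± 0.255, limma adjusted p = 0.0163) from replicates that lay apart, 319.8 and 579 in labelled KO. It did not pass without labelled KO inhibitor replicate 1 (-0.50, limma adjusted p = 0.0592) or WT inhibitor replicate 1 (-0.76, limma adjusted p = 0.0692).

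With TGFβ the genotypes were closer, with 13 members higher and 4 lower in labelled KO, where 21.2% of all genes were higher and 19% lower, and a members' median of -0.01. The split was 9 and 7 after rescaling to the same total and 11 and 7 after quantile normalization. The count of higher members was 3 and 6 without WT TGFβ replicates 1 and 2, and that of lower members 1 without either of them, 2 without labelled KO TGFβ replicate 2 and 8 without its replicate 1. Cox7a1 was again the lowest (-1.54 ± 0.206, limma adjusted p = 0.000749), with 55.7 and 50.9 in WT against 18.1 and 17.3 in labelled KO. Atp5c1, the γ subunit of the ATP synthase rotor, was higher at 12988 and 14222 against 9969 and 10201 in WT (0.43 ± 0.081, limma adjusted p = 0.00429), and Ndufa9 of complex I was higher by 0.42 ± 0.069 (limma adjusted p = 0.00226). In complex II, Sdha was lower (-0.31 ± 0.069, limma adjusted p = 0.00886) and Sdhd higher (0.30 ± 0.055, limma adjusted p = 0.00384) in the same libraries, the Sdha call being lost without either WT TGFβ replicate (-0.33 and -0.30, limma adjusted p = 0.0578 and 0.0771).

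In organoids, with 1 library per condition and so no replicate check, subunit genes were also lower with TGFβ than with inhibitor. Without doxycycline 76 of 78 members and 50.4% of all genes lay below 0, with a median log2 ratio of -0.36 for the members. Only 4 were lower by 1.5-fold or more and 0 higher, while 8.17% and 8.48% of all genes were lower and higher by that much. With doxycycline 77 of 78 members and 53.2% of all genes lay below 0, the members' median was -0.20, and 0 passed 1.5-fold in either direction, against 7.28% lower and 7.89% higher among all genes. Exact 95% counting intervals, which cover counting error only, excluded 0 on the low side for 75 members without doxycycline and for 68 with it, where they did so for 29.9% and 30.5% of all genes. These comparisons and those for doxycycline below share the same 4 libraries.

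Without doxycycline Cox7a1 had 95.9 with inhibitor and 41.0 with TGFβ (log2 ratio -1.21, interval -1.79 to -0.69), and Cox6b2 had 198 and 94.6 (-1.06, interval -1.43 to -0.71). Uqcrq had 5845 and 2954 (-0.98, interval -1.05 to -0.92). Ndufab1, the largest fall in WT PDA cells, was among the few members higher in organoids, with 701 and 795 (0.18, interval 0.04 to 0.33). With doxycycline, Cox5a had 6641 with inhibitor and 5041 with TGFβ (-0.40), and without it 5146 and 3865 (-0.41).

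Between libraries with and without doxycycline, smaller shares of members than of all genes differed by 1.5-fold or more. With inhibitor, 6 of 78 members were lower by 1.5-fold or more and 0 higher, where 18.5% and 18% of all genes were. The members' median was -0.21. Ndufv3, an accessory subunit in the NADH-oxidising arm of complex I, had 3347 without and 1699.9 with doxycycline (-0.98, interval -1.05 to -0.90), and Ndufa6 had 4096 and 2218 (-0.88, interval -0.95 to -0.82). With TGFβ, 2 members were lower by that much, again Ndufv3 (2498 and 1481, log2 ratio -0.75) and Ndufa6 (3264 and 2028, log2 ratio -0.69), and 1 was higher, Uqcrq (2954 and 4637, log2 ratio 0.65), where 18.3% and 16.9% of all genes were. Both genes of complex I were lower with doxycycline under either treatment.

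**Figure D5:**
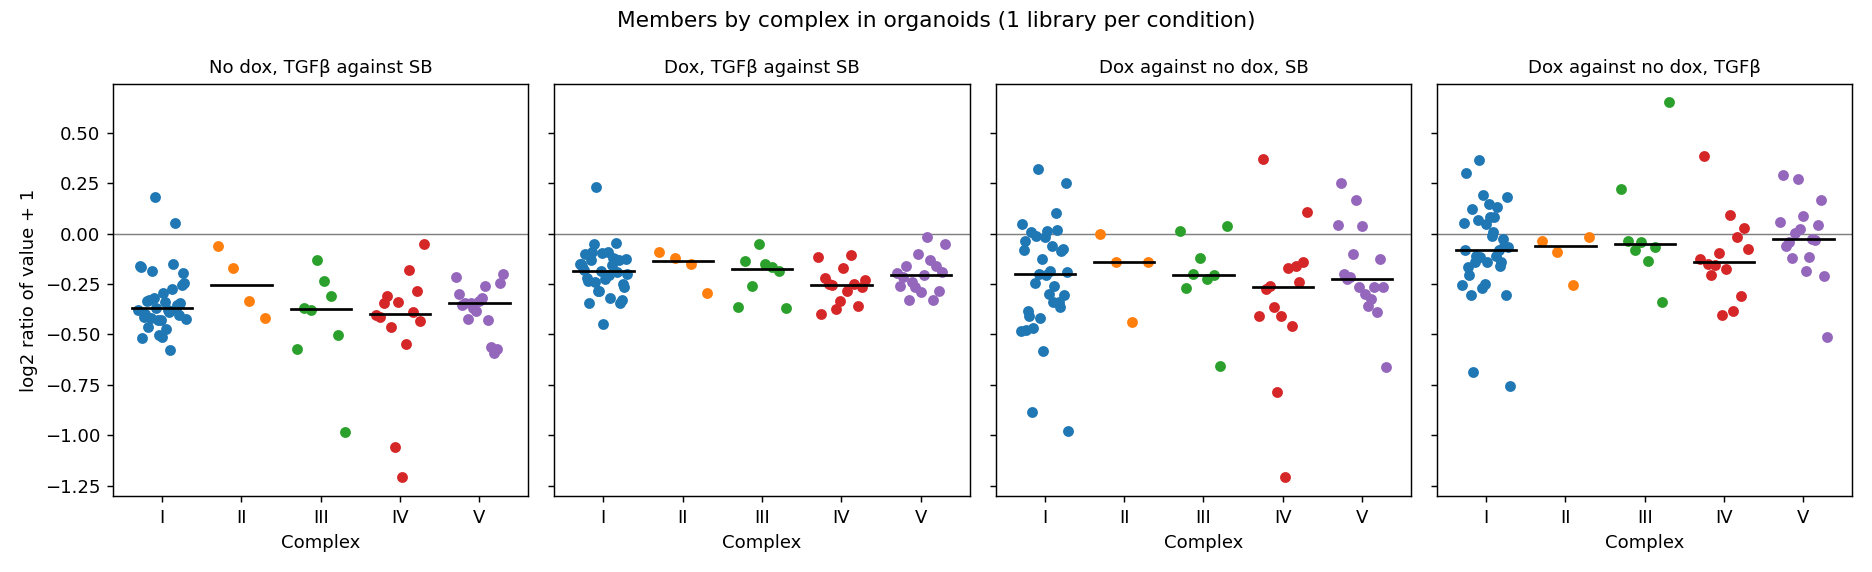
Log2 ratios of the 78 reported subunits in the organoid table by complex (I to V), for TGFβ against inhibitor without and with doxycycline and for doxycycline against none under each treatment, from 1 library per condition. Medians over all members were -0.36 and -0.20 for TGFβ and -0.21 and -0.07 for doxycycline.

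Genes that build or feed the chain were counted in the same fits, against the shares of all genes called: 30.8% lower and 32.3% higher in WT EBs, 30.9% and 29.1% in labelled KO EBs, 17.6% and 19.4% with TGFβ in WT PDA cells, and 18% and 20.6% in labelled KO PDA cells. Of 15 assembly factors of complex I tested, 8 fell in WT EBs, led by Ecsit (-0.76), and 6 fell and 3 rose in labelled KO. Of 28 factors for complexes II to V, 14 fell and 3 rose in WT EBs, led by the copper chaperone gene Sco1 (-1.03). In PDA cells 10 of these 28 fell with TGFβ in WT, among them Surf1 (-0.50) and Tmem70 (-0.64), which serve complex IV and ATP synthase. In labelled KO 8 rose and 1 fell, with Pet100 at 0.78 and Coa3 at 0.65.

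Among 15 electron carriers and exchangers, 9 fell and 2 rose in WT EBs, with the ADP/ATP carrier gene Slc25a5 at -0.74, and 5 rose and 5 fell in labelled KO, shares near those of all genes. At day 0 Cyct, the testis cytochrome c gene, was lower in labelled KO (log2 fold change -2.59), and the outer membrane channel gene Vdac1 had -1.08. Of 11 genes for coenzyme Q, the electron carrier between complexes, 9 fell and 1 rose in WT EBs. Of 27 genes of the TCA cycle and pyruvate entry, 18 fell and 2 rose in WT EBs, and 10 fell and 12 rose in labelled KO, with Pdk1, a kinase that shuts pyruvate dehydrogenase, at 1.26 in labelled KO. Pdk1 also rose with TGFβ in PDA cells, by 0.90 in WT and 1.21 in labelled KO.

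Of 18 regulators of mitochondrial biogenesis, 9 fell and 3 rose in WT EBs. Esrrb, a nuclear receptor that is also a pluripotency gene, had -2.43 and Gabpa, the ETS subunit of GABP, -0.60, while Polg, the mitochondrial DNA polymerase, had 0.98. Of 17 tested in PDA cells, 1 rose and 4 fell with TGFβ in WT, and 0 rose and 5 fell in labelled KO. Gabpa was the one that rose in WT (0.42), and Ppargc1a, the coactivator PGC-1α, fell in WT (-0.50) and in labelled KO (-0.57). The 76 mitochondrial ribosomal protein genes had 42 falls and 2 rises in WT EBs and 26 falls and 10 rises in labelled KO. In PDA cells they had 41 falls in WT, and 18 rises and 1 fall in labelled KO.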

How the data were processed

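RNA passed an integrity number of 9.5, per the labels' protocols, and the TruSeq v2 kit used does not mark strand. Tools listed in the submitters' processing notes, with no role or order, are HTSeq 0.6.1p1, DESeq2 3.4, FastQC 0.11.5, Bowtie2 and HOMER, beside the build mm10. The deposited signal holds the authors' normalized counts, in 3 tables that were normalized separately. Dividing each column by the value of 1 read gave whole reads for 100% of values within 0.001, and these recovered reads gave the depth and the edgeR and DESeq2 alternatives.

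The main test was limma 3.58.1 (R 4.3.3) with its trend option on log2(value + 1), over the 8 libraries of a table in 4 groups of 2, with Benjamini-Hochberg adjustment over all genes with a value of 10 or more in at least 2 libraries. A fold change on that scale understates low genes. Organoids, with 1 library per condition, got ratios with exact counting intervals and no test. Complexes were assigned by name, with Ndufa4 placed in complex IV. Alternatives were rescaling to the same total, quantile normalization, edgeR 4.0.16, DESeq2 1.42.0, 10 added in place of 1, no filter, a mean of at least 50, a replicate block and leaving out each library. In data simulated on the real means, limma recovered 52.2% of genes changed by 1.5-fold in the PDA design (13041 genes) and 77.6% in the EB design (14968 genes). Of genes changed by 1.25-fold it recovered 1.49% and 20.9%. Each of these folds was given to 67 random genes with a mean of at least 50, in the WT TGFβ or WT day 4 group only. Fewer genes changed there than were called in the data, so the adjusted threshold was stricter. These rates therefore do not carry over to the data.

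The members and lists were chosen with earlier results of these data known. Genes were named by rule: the 3 largest called changes in each direction per comparison, the isoform families of complex IV and the c-ring, the Sdh genes, and the list genes with the smallest p. Transcript lengths were not used here, so the rule's levels per length were not computed. Antisense and overlapping genes cannot be told apart without strand. Annotated copies were sought by gene symbol alone, with no sequence compared. They were found for 11 members (Atp5c1, Atp5k, Atp5l, Cox5b, Cox7c, Ndufa11, Ndufa12, Ndufab1, Ndufb4, Ndufs6 and Uqcrh), whose values are uncertain for that reason. Copies under other names were not sought, so other members may be affected too.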

Additional observations from a re-analysis of the deposited data

Results flagged for a closer look

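These results are listed because a limma interaction, which tests the difference itself, passed between the responses of WT and labelled KO cells. Named members that did not pass are left out. In PDA cells 8 named members passed, each with a higher response to TGFβ against inhibitor in labelled KO than in WT. Their shared direction is no further result, since 0 of the 77 members were called lower. Over all members 9 differences lay below 0, and the lowest in complex IV was -0.50. In log2 units the differences were 0.51 for Atp5g3, 0.63 for Cox6b1, 0.58 for Cox7a2, 0.62 for Cox7b, 0.84 for Ndufb2, 0.82 for Ndufb4, 0.49 for Sdhd and 0.96 for Uqcrh. Of these, Cox6b1, Cox7b and Ndufb2 passed under every alternative run. Ndufb4 and Cox7a2 each failed without 4 of the single libraries in turn, Sdhd failed without either WT TGFβ replicate, and Atp5g3 and Uqcrh failed without the first of them.

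From day 0 to day 4 of EB formation, among the named members that passed, the change was higher in labelled KO for 13 and lower for 1. The differences were 0.83 for Atp5g2, 2.43 for Cox4i2, 0.88 for Cox6a1, 0.47 for Cox6b1, 0.94 for Cox6b2, 2.16 for Cox7a1, 0.66 for Cox7a2, 0.67 for Cox7a2l, 0.57 for Cox7b, 1.64 for Cox7c, 0.71 for Cox8a, 0.56 for Sdhb and 0.73 for Sdhc. Cox6a2 went the other way, at -2.48. All 14 passed under every alternative run in which they were tested.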

How the results depend on the processing

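No named gene result of 123 reversed, and 48 lost their call under at least 1 alternative. The counts that follow in this section are of members called. Shares of all genes under these settings were not counted. After rescaling to the same total, the falls in WT PDA cells were 20, the rises in labelled KO 44, and the members lower in labelled KO with TGFβ 7 (also 7 with quantile normalization). In EBs rescaling gave 2 lower in the interaction and 10 higher with 23 lower in labelled KO at day 4. Quantile normalization gave 17 falls in labelled KO EBs, 3 higher in labelled KO at day 0 and 13 higher at day 4. The 1 rise in WT PDA cells became 0 with quantile normalization, DESeq2 and a mean of at least 50, the last of which also left 0 lower in the EB interaction. Without a filter, organoids had 2 members lower with TGFβ under doxycycline, and 1 (inhibitor) and 2 (TGFβ) higher with doxycycline. PDA counts were also taken without WT SB replicate 1 and KO TGFβ replicate 2, a choice made after seeing the data. They were 63 falls in WT, 59 rises in labelled KO and 71 higher in the interaction. Between the genotypes they were 1 higher and 67 lower with inhibitor, and 29 higher and 9 lower with TGFβ. Those libraries came from the groups whose replicates differed most, so leaving them out lowers the estimated spread.

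Replicate numbers are shared across groups, but nothing in the labels pairs them, and replicate differences correlated between groups at -0.51 to 0.14 in PDA cells and -0.03 to 0.09 in EBs. With replicate number as a block the falls in WT PDA cells were 18, the rises in labelled KO 17, the PDA interaction 24 higher and the EB interaction 2 lower.

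Leaving out 1 library at a time gave these ranges. In PDA cells: 0 to 1 rises and 1 to 32 falls in WT, 6 to 33 rises and 0 to 1 falls in labelled KO, 5 to 36 higher in the interaction, 0 to 1 higher and 31 to 52 lower with inhibitor, and 3 to 18 higher and 1 to 8 lower with TGFβ. In EBs: 1 to 2 rises and 51 to 68 falls in WT, 16 to 25 rises and 14 to 28 falls in labelled KO, 40 to 54 higher and 1 to 2 lower in the interaction, 4 to 7 higher and 42 to 58 lower at day 0, and 10 to 25 higher and 10 to 20 lower at day 4. A group left with 1 library was assumed to vary like the others.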

Other observations

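Gene groups outside the respiratory chain moved in the same libraries. Of all genes, 30.8% were lower and 32.3% higher at day 4 in WT EBs, and 30.9% and 29.1% in labelled KO EBs. Between the genotypes, 33.3% were lower in labelled KO and 33.9% higher at day 0, and 28.4% and 27.8% at day 4. In PDA cells 17.6% were lower with TGFβ in WT, and 27.2% were lower in labelled KO than in WT with inhibitor. The cytosolic ribosomal protein genes fell in WT EBs (58 of 83 lower, 1 higher) and rose in labelled KO EBs (74 higher, 3 lower, median log2 fold change 0.56). At day 0, 71 of 83 were lower in labelled KO than in WT and 1 was higher, and at day 4, 56 were higher and 1 lower. In PDA cells 32 of 80 fell with TGFβ in WT, and 48 were lower in labelled KO than in WT with inhibitor.

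Genes of lactate export and glycolysis rose in EBs of either genotype. In WT, 7 of 10 rose and 2 fell, with a median of 0.65, and Slc16a3, the lactate exporter MCT4, rose by 1.87. In labelled KO all 10 rose, with a median of 1.71, Slc16a3 by 4.08 and Ldha, which makes lactate from pyruvate, by 3.35. At day 0 the labelled KO stem cells had 8 of 10 lower than WT and 1 higher, with Ldha at -3.26. Of 9 such genes tested in PDA cells, 1 rose and 2 fell with TGFβ in WT, and 2 rose and 1 fell in labelled KO. Of all genes, 19.4% rose and 17.6% fell in WT, and 20.6% and 18% in labelled KO. Hk2, a hexokinase, was the one that rose in WT (1.08), and it fell in labelled KO (-0.24). Of 26 genes of mitochondrial protein import, 11 fell with TGFβ in WT PDA cells, among them Timm9 (-0.73), and 12 fell and 2 rose in WT EBs. These lists were counted with limma in the fits used for the subunits, with no test of the lists themselves. The shares of all genes given for the ribosomal protein genes apply to them too.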
